A study of Mus musculus with 2 samples.

Results

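Transcripts of 10 genes of the inhibin, activin, BMP and AMH signalling pathways were followed in spermatogonial progenitor cells of the mouse testis. The genes were Inha, Inhba, Inhbb, Fst, Bmp4, Acvr2a, Acvr2b, Bmpr1a, Amh and Amhr2, chosen by name. They are 10 of the 23379 genes named in the files and 10 of the 13822 genes compared, and all 10 passed the filter on low values. The RNA came from Dnmt3l knockout and wild-type C57BL/6 mice at 8 days after birth, with 1 library for each genotype. Dnmt3l encodes a partner of the de novo DNA methyltransferases that has no catalytic activity of its own. The sources used here do not say how the cells were isolated from the testis, how many mice gave each library or how the mutant allele was made. With 1 library of each genotype there is no replicate check, so no test was made and every difference is between these libraries.

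Inhibins and activins are dimers of the TGF-beta superfamily. A beta subunit paired with another beta subunit makes an activin, and a beta subunit paired with the alpha subunit makes an inhibin, which opposes activin. Activins bind the type II receptors ACVR2A and ACVR2B, BMP4 signals through type I receptors such as BMPR1A, and AMH has a type II receptor of its own, AMHR2. In the immature testis Sertoli cells, the somatic cells that surround the germ cells, are the main source of inhibin and of AMH, while activin and BMP4 act on early germ cells.

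Levels are in FPKM, a level scaled by transcript length and by the fragments of the library, as deposited. Levels of different genes can therefore be set beside each other. A gene's level is the sum of its RefSeq transcript and of the models of 300 nt or more assembled from the reads of that library on the same strand. The lower and upper bounds given beside a level are those of the files, summed likewise, and describe the estimate within a library and not the spread between mice. The ratio of a gene is the log2 of its knockout over its wild-type level after adding 1 FPKM to each, which understates the change of low genes, and 2-fold is counted on this scale throughout. All coordinates are of the build mm10.

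Dnmt3l itself was listed at 0 FPKM in the knockout library, against 1.67 FPKM (bounds 0.791 to 2.68) in the wild-type library. In files without read counts, a listed 0 can also be a failed estimate. The label of the cells was set beside marker genes of the testis. Markers of undifferentiated spermatogonia summed to 838 FPKM in the knockout library and 825 FPKM in the wild-type library. Of these sums, 465.6 FPKM in the knockout library and 509.0 FPKM in the wild-type library came from 1 gene, Uchl1. Markers of somatic cells were present in both libraries as well, with 18 Sertoli markers at 1410 and 718 FPKM in all. The median ratio was 0.21 over the 12518 genes that reached 1 FPKM in each library, and 66% of all genes compared had a ratio above 0, so the ratios of the 10 genes are also given after subtracting this median. In these bulk samples, fewer cells of a type and less RNA per cell cannot be told apart.

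The genes for the alpha subunit of inhibin and for AMH were the most abundant ligand genes of the set in the knockout library, and both were more than 2-fold higher there than in the wild-type library. Bmp4 was higher by a similar factor at a much lower level. Inhba, which encodes the beta A subunit, was lower, and Inhbb, which encodes the beta B subunit, was modestly higher. Of the 4 receptor genes 3 had ratios below 0, and the receptor gene for AMH had a ratio above 0. In counts, 3 of the 10 genes were at least 2-fold higher (Inha, Amh and Bmp4), against a background of 7.68% of the genes compared, and 1 was at least 2-fold lower (Inhba), against 3.49%. The median ratio of the 10 genes was 0.39, with 6 above 0 and 4 below, and the median over all genes compared was 0.22. The bounds of the libraries were apart for 9 of the 10 genes, all but Fst, and for 51.6% of all genes compared.

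**Figure D1:**
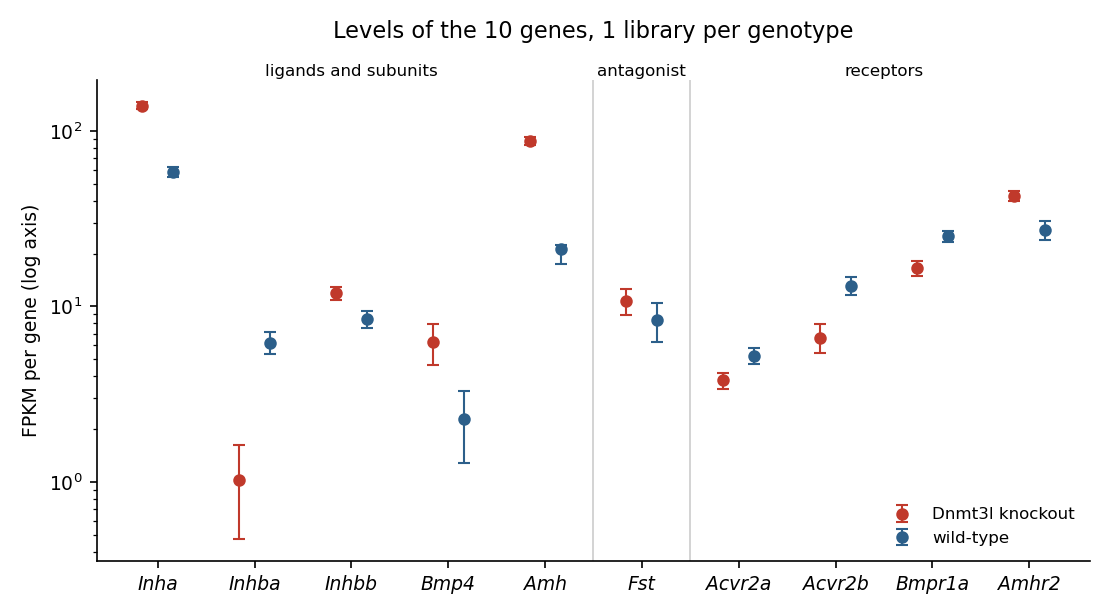
Level of each of the 10 genes in the Dnmt3l knockout library (red) and the wild-type library (blue), in FPKM on a log axis; points are the levels and bars run from the lower to the upper bound given in the files, within 1 library. Inha and Amh are the highest points of the knockout library, at 139.6 and 87.4 FPKM, and the bars of Fst are those that overlap.

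Inha (chromosome 1, 75507077 to 75510354, plus strand) encodes the alpha subunit that makes a dimer an inhibin. It was at 139.6 FPKM (bounds 134.1 to 146.6) in the knockout library, against 58.5 FPKM (54.5 to 62.5) in the wild-type library. The ratio was 1.24, a 2.39-fold difference without the pseudocount, and 1.03 after subtracting the median gene. Inha lay above 96.2% of the genes compared in the knockout library and above 91.0% of them in the wild-type library. Both libraries gave it as 1 RefSeq transcript of 2 exons and 1463 nt, with no assembled model on its strand. Levels along a gene are sums over models, so a single transcript has the same level along its length by construction. Over the last 1000 nt the levels were 139.6 FPKM in the knockout library and 58.5 FPKM in the wild-type library. Over the first 1000 nt, where models of the opposite strand add to the sum, they were 140.6 and 59.9 FPKM. Models of Obsl1, the gene on the opposite strand next to it, reached 70 nt onto Inha exons in the knockout library and 81 nt in the wild-type library. Obsl1 was at 27.2 FPKM in the knockout library and 26.4 FPKM in the wild-type library.

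Inhbb (chromosome 1, 119415465 to 119422248, minus strand) encodes the beta B subunit of activin B and inhibin B. It was at 12.0 FPKM (bounds 10.8 to 12.9) in the knockout library and 8.46 FPKM (7.53 to 9.37) in the wild-type library. The ratio was 0.46, and 0.25 after subtracting the median gene, short of 2-fold on either scale. Its single RefSeq transcript of 4255 nt carried the whole level in both libraries, without assembled models.

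Inhba (chromosome 13, 16014475 to 16027211, plus strand) encodes the beta A subunit of activin A and inhibin A. It was at 1.03 FPKM (bounds 0.474 to 1.63) in the knockout library, against 6.17 FPKM (5.33 to 7.11) in the wild-type library. The ratio was -1.82, the lowest of the 10 genes, and -2.03 after subtracting the median gene. Inhba lay above 3.57% of the genes compared in the knockout library and above 35.1% of them in the wild-type library. The value rests on models, since the RefSeq transcript was at 0.253 FPKM in the knockout library and the wild-type file lists it at 0.

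The difference of Inhba was not the same along the transcript. Over the coding part the levels were 1.03 FPKM in the knockout library and 6.17 FPKM in the wild-type library. There, 2 wild-type models, at 1.75 and 4.42 FPKM, covered the coding part and ran on through a long 3′ untranslated region beyond the RefSeq end. In the knockout library the only strand-assigned model, of 2189 nt and at 0.778 FPKM, ended soon after the RefSeq end, and the region behind it held 3 separate models without a strand, at 3.31, 2.11 and 6.52 FPKM, which the sum leaves out. Over the 4398 nt from the RefSeq end to the GENCODE end, the level with all models was 4.0 FPKM in the knockout library and 6.12 FPKM in the wild-type library. Its first 2199 nt had 1.92 FPKM in the knockout library and 6.17 FPKM in the wild-type library, and its last 2199 nt had 6.09 and 6.08 FPKM. Averaged over all GENCODE exons the levels were 2.99 FPKM in the knockout library and 5.66 FPKM in the wild-type library, a ratio of -0.74, so the direction held and the size was less than 2-fold. What gave the unequal levels along the gene was not tested.

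**Figure D2:**
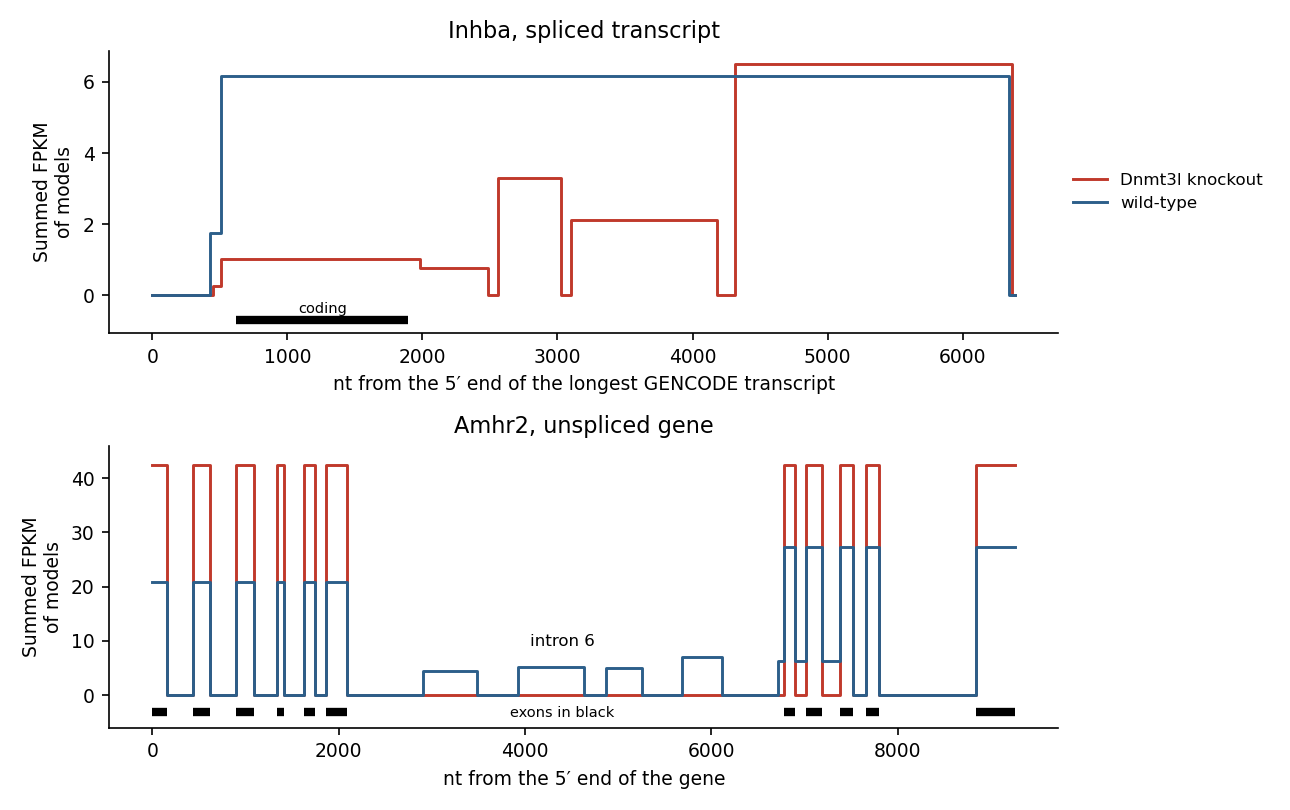
Summed FPKM of all models at each base, for the knockout library (red) and the wild-type library (blue), along the spliced Inhba transcript (top, with the coding part in black) and along the unspliced Amhr2 gene (bottom, with exons in black). The Inhba lines are apart over the coding part, at 1.03 and 6.17 FPKM, and close at the 3′ end, and models inside intron 6 of Amhr2 are drawn for the wild-type library.

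The alpha and beta subunit genes thus stood in different proportions. The level of Inha was 10.7 times that of Inhba and Inhbb together in the knockout library and 4.0 times in the wild-type library. Against Inhbb alone it was 11.7 times in the knockout library and 6.92 times in the wild-type library. Inhba stood at 0.0861 of the level of Inhbb in the knockout library and at 0.730 of it in the wild-type library. Over GENCODE exons, which take in the Inhba models without a strand, these were 0.250 and 0.669, and Inha was 9.30 and 4.18 times both beta subunit genes. These are ratios of RNA levels and say nothing of how the subunits were paired.

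Fst (chromosome 13, 114452262 to 114458730, minus strand) encodes follistatin, a secreted protein that binds activins and keeps them from their receptors. It was at 10.7 FPKM (bounds 8.89 to 12.6) in the knockout library and 8.33 FPKM (6.26 to 10.4) in the wild-type library. The ratio was 0.33, and the bounds overlap. Its RefSeq transcript was at 6.48 FPKM in the knockout library and 4.78 FPKM in the wild-type library, and models carried the rest.

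Bmp4 (chromosome 14, 46383520 to 46390599, minus strand) encodes a bone morphogenetic protein that in the mouse induces the germ line in the embryo and acts on spermatogonia after birth. It was at 6.29 FPKM (bounds 4.64 to 7.91) in the knockout library, against 2.29 FPKM (1.29 to 3.29) in the wild-type library. The ratio was 1.15, and 0.94 after subtracting the median gene, which is below 2-fold. The RefSeq transcript alone was at 4.47 FPKM in the knockout library and 1.13 FPKM in the wild-type library. The knockout model on the same strand, at 1.82 FPKM, had all 4 exons, while the wild-type model, at 1.16 FPKM, had 2 exons at the 3′ end. Over the first 1000 nt of the RefSeq transcript the levels were 6.19 FPKM in the knockout library and 1.80 FPKM in the wild-type library, and over the last 1000 nt they were 5.62 and 2.29 FPKM. Bmp4 was higher in the knockout library at both ends, but the RefSeq transcript adds its level to each, so the ends are not separate measurements.

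Amh (chromosome 10, 80805248 to 80807648, plus strand) encodes anti-Müllerian hormone, which Sertoli cells secrete before puberty and which makes the Müllerian ducts regress in male fetuses. It was at 87.4 FPKM (bounds 83.1 to 92.1) in the knockout library, against 21.2 FPKM (17.5 to 22.4) in the wild-type library. Its ratio was the highest of the 10 genes, at 1.99, and 1.79 after subtracting the median gene. Amh lay above 92.9% of the genes compared in the knockout library and above 69.0% of them in the wild-type library. The whole level belonged to 1 RefSeq transcript of 5 exons and 1665 nt in both libraries. Relative to Inha, another product of Sertoli cells, Amh stood at 0.626 in the knockout library and 0.363 in the wild-type library.

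Amhr2 (chromosome 15, 102445367 to 102454639, plus strand) encodes the type II receptor of AMH, found on Sertoli and Leydig cells of the testis. It was at 42.5 FPKM (bounds 39.7 to 45.2) in the knockout library and 27.2 FPKM (23.9 to 30.6) in the wild-type library. The ratio was 0.62, and 0.42 after subtracting the median gene. Amh stood at 2.06 times the level of its receptor gene in the knockout library and at 0.779 times in the wild-type library. With the RefSeq transcripts alone these were 2.06 and 1.02 times, so in the wild-type library the order of Amh and its receptor gene depended on an assembled model.

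The assembled structure of Amhr2 also differed. In the knockout library the RefSeq transcript of 11 exons carried the whole level, and no model lay in an intron. In wild-type cells that transcript was at 20.9 FPKM, and a 3-exon model at 6.33 FPKM covered the 3′ part of the gene and kept introns 7 and 8. With the RefSeq transcript alone the ratio was 0.99. Only the wild-type library had models without a strand inside intron 6, which is 4687 nt long, at 4.54, 5.16, 5.08 and 7.13 FPKM, with a shorter one of 276 nt at 9.92 FPKM. The mean level over that intron, without the shortest model, was 0 in the knockout library and 2.49 FPKM in the wild-type library. Intron 6 was the longest intron of the gene, and a cause of these models was not tested.

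Acvr2a (chromosome 2, 48814109 to 48903264, plus strand) encodes a type II receptor for activins and some BMPs. It was the lowest receptor gene of the set in both libraries, at 3.79 FPKM (bounds 3.40 to 4.16) in the knockout library and 5.23 FPKM (4.71 to 5.76) in the wild-type library. The ratio was -0.38, and -0.59 after subtracting the median gene, and the bounds did not overlap. Its RefSeq transcript carried the whole level. The last exon overlaps Orc4, a gene on the opposite strand, by 511 nt at most and no strand-marking step is given in the labels' protocols. As a gene sum Orc4 was at 20.7 FPKM in the knockout library and 8.24 FPKM in the wild-type library. Its transcripts that lie on Acvr2a exons had the opposite order, at 3.42 FPKM in the knockout library and 8.24 FPKM in the wild-type library. The part of Orc4 reads in the Acvr2a values was not tested.

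Acvr2b (chromosome 9, 119402501 to 119433506, plus strand) encodes the other type II receptor of activins. It was at 6.63 FPKM (bounds 5.41 to 7.95) in the knockout library and 13.1 FPKM (11.6 to 14.6) in the wild-type library. The ratio was -0.88, and -1.09 after subtracting the median gene, which is past 2-fold. The RefSeq transcript, of 1701 nt, was listed at 0 in both libraries, and the level came from models that ran past the RefSeq 3′ end. These were at 2.80 and 3.83 FPKM in the knockout library and 4.90 and 8.18 FPKM in the wild-type library. The wild-type model at 8.18 FPKM started at 119403139, inside the first intron of the RefSeq transcript. Over the 5′ untranslated region the direction was the opposite, at 6.63 FPKM in the knockout library and 4.90 FPKM in the wild-type library. Over the coding part the levels were 6.63 FPKM in the knockout library and 12.8 FPKM in the wild-type library. Downstream of the RefSeq end the levels were closer. The first 4321 nt there had 3.66 FPKM in the knockout library and 6.59 FPKM in the wild-type library, and the next 4321 nt had 4.29 and 4.88 FPKM. This stretch of 8642 nt is longer than all GENCODE exons of Acvr2b together, at 3928 nt. No knockout model of Acvr2b ran past 119434848, so the knockout level over the second part came from models not assigned to the gene. Unlike the stretch of Inhba, it cannot be read as the 3′ end of the gene. The level of Acvr2b was 1.75 times that of Acvr2a in the knockout library and 2.50 times in the wild-type library.

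Bmpr1a (chromosome 14, 34411068 to 34502546, minus strand) encodes a type I receptor, a kinase that BMP ligands and AMH bring together with a type II receptor. It was at 16.5 FPKM (bounds 15.0 to 18.1) in the knockout library and 25.2 FPKM (23.4 to 27.0) in the wild-type library. The ratio was -0.58, and -0.79 after subtracting the median gene. This direction depended on how isoforms were counted. The RefSeq transcript was at 11.2 FPKM in the knockout library and 4.81 FPKM in the wild-type library, a ratio of 1.07. The assembled model, which in each library also had 13 exons, was at 5.29 FPKM in the knockout library and 20.4 FPKM in the wild-type library. The wild-type model started at 34501386, inside the first intron of the RefSeq transcript, and covered all coding bases. Over the coding part the levels were 16.4 FPKM in the knockout library and 25.2 FPKM in the wild-type library, and over the 5′ untranslated region they were 12.3 and 13.04 FPKM. For Bmpr1a the gene total and the coding part were therefore lower in the knockout library, and the RefSeq isoform was higher.

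**Figure D3:**
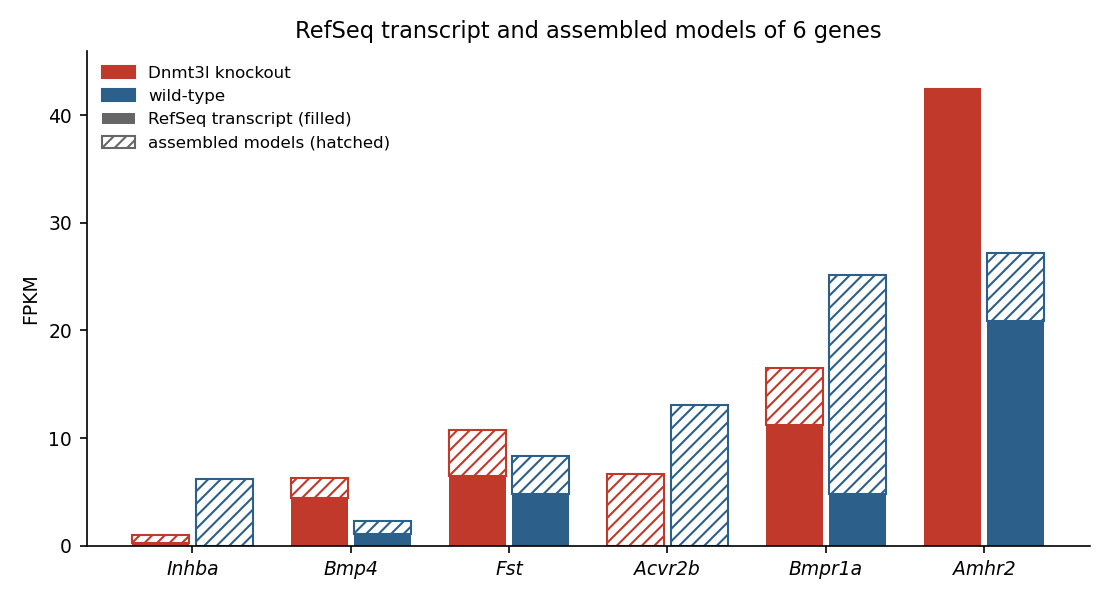
FPKM of 6 genes in the knockout library (red, left bar) and the wild-type library (blue, right bar), split into the RefSeq transcript (filled) and assembled models on the same strand (hatched); bar tops are the gene levels. The filled part of Bmpr1a is larger in the knockout library, at 11.2 FPKM against 4.81 FPKM, although its whole bar is shorter, and Acvr2b has no filled part in either library.

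In order of level, the knockout library had Inha, Amh, Amhr2, Bmpr1a, Inhbb, Fst, Acvr2b, Bmp4, Acvr2a and Inhba. Neighbours in this order whose bounds overlapped were Inhbb with Fst and Acvr2b with Bmp4. The wild-type library had Inha, Amhr2, Bmpr1a, Amh, Acvr2b, Inhbb, Fst, Inhba, Acvr2a and Bmp4. There the bounds overlapped for Amhr2 with Bmpr1a, Inhbb with Fst, Fst with Inhba and Inhba with Acvr2a. Inha was thus first in both libraries.

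DNMT3L acts on the methylation of CpG sites, and the promoters of the receptor genes differ widely in them. Methylation was not measured in these samples. Promoter sequences were available from RefSeq (GRCm38.p6, the assembly of mm10) for 8 of the 10 genes, as 300 bases from 250 before to 50 after a listed start, and not for Amh and Fst. The listed start was that of the transcript in the files for Inhbb, Acvr2a, Bmpr1a and Amhr2. The 250 bases before the start of 3 receptor genes are given because they mark the ends of this range, with each CG in capitals. They lie at chr2:48813859-48814108 on the plus strand for Acvr2a, at chr14:34502547-34502796 on the minus strand for Bmpr1a and at chr15:102445117-102445366 on the plus strand for Amhr2, and each is written 5′ to 3′ on the gene's strand.
Acvr2a: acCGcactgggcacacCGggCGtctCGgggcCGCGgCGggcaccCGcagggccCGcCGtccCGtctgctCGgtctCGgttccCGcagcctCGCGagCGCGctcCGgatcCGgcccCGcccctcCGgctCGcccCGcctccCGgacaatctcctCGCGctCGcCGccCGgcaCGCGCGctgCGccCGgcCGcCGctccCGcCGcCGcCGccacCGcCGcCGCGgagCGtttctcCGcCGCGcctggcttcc
Bmpr1a: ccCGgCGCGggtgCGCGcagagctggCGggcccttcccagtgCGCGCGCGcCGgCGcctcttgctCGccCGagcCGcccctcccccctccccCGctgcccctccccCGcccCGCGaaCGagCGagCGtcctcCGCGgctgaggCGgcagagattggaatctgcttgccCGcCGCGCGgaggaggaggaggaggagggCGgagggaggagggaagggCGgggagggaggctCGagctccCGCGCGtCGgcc
Amhr2: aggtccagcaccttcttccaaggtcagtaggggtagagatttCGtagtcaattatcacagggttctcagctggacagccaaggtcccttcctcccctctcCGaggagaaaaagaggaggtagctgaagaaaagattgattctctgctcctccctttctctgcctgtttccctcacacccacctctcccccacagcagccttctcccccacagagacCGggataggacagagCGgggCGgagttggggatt
These bases hold 49 CpGs for Acvr2a, 36 for Bmpr1a and 5 for Amhr2.

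Over the full 300 bases the Acvr2a promoter had 54 CpGs, more than 99.7% of the 32851 promoters listed, and the Bmpr1a promoter had 48, more than 98.8% of them. The Inhbb promoter had 23. The Amhr2 promoter had 5, below the median of 7 over all promoters. For the other genes the listed start lay away from that in the files, by 532 nt for Inha, 2624 nt for Inhba, 323 nt for Acvr2b and 70 nt for Bmp4, and the counts were 5, 7, 27 and 12 CpGs. Where the listed start was that in the files, the ratios were 0.62 for Amhr2, 0.46 for Inhbb, -0.58 for Bmpr1a and -0.38 for Acvr2a. Inhba, with 7 CpGs, had the lowest ratio of the 8 genes, but its listed start lay away from that in the files. A link between CpG counts and ratios was not tested. Over all genes compared that had a listed promoter, the median ratio was 0.34 for the 1203 genes with 0 to 5 CpGs and 0.03 for the 710 genes with 41 or more, and CpG content was not separated from transcript length here. The motif AAGGTCA, which the orphan receptor NR5A1 (SF-1) binds, was searched on both strands and matched the Amhr2 promoter at positions -231 to -225 from the start. It occurs in 4.72% of all promoters of this length. Searched in the same way in the 8 promoters were AGATAA for GATA factors, AACAAT for SOX factors, TGACGTCA and its variant TGCGTCA for cAMP-responsive factors, GTCTAGAC and GGCGCC for SMAD proteins, and the TATA box as TATAAA. Of these, TATAAA matched at -91 to -86 for Inhba, and occurs in 13.6% of all promoters, and GGCGCC matched at -198 to -193 for Bmpr1a, and occurs in 11.9%. A match shows only that the letters are there.

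Amh, Inha and Amhr2 are genes of Sertoli cells, Amhr2 also of Leydig cells, and most Sertoli markers had ratios above 0 as well. Of 18 Sertoli markers, all compared, 17 had ratios above 0 and 4 were at least 2-fold higher, with a median of 0.72. The background for this and the other marker lists was 66% above 0 and 7.68% at least 2-fold higher among all genes compared. None was at 0 in the knockout library, and for Tsx the wild-type file lists 0. Rhox5, an X-linked homeobox gene, was at 36.8 FPKM in the knockout library and 4.18 FPKM in the wild-type library, and Defb19 at 184.8 and 71.4 FPKM. Kitl, the ligand of KIT, was the marker that was lower, at 5.21 and 10.01 FPKM. The Sertoli markers summed to 1.96 times as much in the knockout library as in the wild-type library.

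The levels were also set against that sum, which divides the fold of every gene by the same 1.96 and leaves their order as it was. Per 100 FPKM of Sertoli markers, Amh was at 6.20 FPKM in the knockout library and 2.95 FPKM in the wild-type library. Inha was at 9.90 FPKM and 8.15 FPKM on the same basis, and Bmp4 at 0.446 and 0.319 FPKM. Amhr2 was at 3.01 FPKM per 100 FPKM of Sertoli markers in the knockout library and 3.79 FPKM in the wild-type library, Inhbb at 0.849 and 1.18 FPKM, and Fst at 0.760 and 1.16 FPKM. A gene whose own fold is below that of the markers is lower on this basis by construction. The sum weighs abundant markers most, and the ratios of single markers ran from -0.83 to 2.86. The direction of a gene on this basis can therefore depend on which markers are summed. The part of Sertoli cell RNA in each of these differences was not tested.

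Markers of other somatic cells were higher as well. The 8 Leydig markers summed to 145.6 FPKM in the knockout library and 62.3 FPKM in the wild-type library, with 6 of the 7 compared above 0 and 3 at least 2-fold higher. Star was listed at 0 in both libraries and Srd5a1 in the wild-type library. Insl3, a Leydig cell hormone, was at 58.5 FPKM in the knockout library and 22.1 FPKM in the wild-type library. The 10 macrophage markers summed to 964 and 503 FPKM, with 8 above 0 and 5 at least 2-fold higher, and the defining marker Cd68 was listed at 0 in the knockout library against 24.6 FPKM in the wild-type library. The 8 endothelial markers summed to 119.2 and 60.2 FPKM, with 6 above 0 and 4 at least 2-fold higher. The 10 peritubular myoid and stromal markers summed to 996 and 700.1 FPKM, with 8 above 0 and none 2-fold different.

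Germ cell markers had sums that were closer in the libraries. The 10 markers of undifferentiated spermatogonia had a median ratio of 0.29, with 8 above 0. Of them Id4 was at 35.0 FPKM in the knockout library and 14.4 FPKM in the wild-type library, and Zbtb16 at 27.9 and 55.4 FPKM. The 6 general germ cell markers summed to 757 FPKM in the knockout library and 868 FPKM in the wild-type library, with 3 above 0 and 3 below. All 5 markers of differentiating spermatogonia had ratios below 0, with sums of 215.1 and 287.4 FPKM. Kit, the receptor that marks their differentiation, was at 5.93 FPKM in the knockout library and 21.7 FPKM in the wild-type library.

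The other genes of these pathways were set beside these 10. Of these 94 genes, each counted once, 66 were compared, with a median of 0.10, below the median of all genes. Among the 66, 6 were at least 2-fold higher and 3 at least 2-fold lower, against 7.68% and 3.49% of all genes compared. These shares are the background for each pathway list. Of 27 other ligand genes 11 were compared and 1 was 2-fold higher. This was Tgfb1, which encodes transforming growth factor beta 1, at 52.2 FPKM in the knockout library and 14.6 FPKM in the wild-type library, a ratio of 1.77. The closest relatives of the inhibin beta subunits, Inhbc and Inhbe, were below 1 FPKM in both libraries. Bmp7 was the most abundant BMP ligand beside Bmp1, a protease by function, at 14.5 FPKM in the knockout library and 13.2 FPKM in the wild-type library.

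Among 20 extracellular antagonists and co-receptors 12 were compared, and none differed 2-fold after adding 1 FPKM. Chrd, the BMP antagonist chordin, had the largest ratio at 0.88, at 2.27 FPKM in the knockout library and 0.777 FPKM in the wild-type library, but over its RefSeq exons the levels were 0.826 and 0.627 FPKM, a ratio of 0.17. Chrdl1, the related antagonist chordin-like 1, was lower, at 2.72 FPKM in the knockout library and 4.85 FPKM in the wild-type library, a ratio of -0.65. Eng, the co-receptor endoglin, also an endothelial gene, was at 20.3 and 12.7 FPKM. Fstl3, a relative of follistatin, was at 1.71 FPKM in the knockout library and 1.61 FPKM in the wild-type library.

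The other receptor genes had ratios on both sides of 0. Of 6 other type I receptor genes 5 were compared, 4 had ratios below 0, and Tgfbr1 was at 4.81 FPKM in the knockout library and 10.9 FPKM in the wild-type library, a ratio of -1.04. Acvrl1, a type I receptor of endothelial cells, was higher, at 9.66 FPKM in the knockout library and 5.23 FPKM in the wild-type library, a ratio of 0.77. Acvr1, which binds BMPs, and Acvr1b, the type I receptor of activin, had ratios of -0.08 and -0.03. Of the other type II receptor genes, Bmpr2, which binds BMPs, was at 2.83 FPKM in the knockout library and 8.63 FPKM in the wild-type library, a ratio of -1.33, and Tgfbr2 was at 8.05 and 7.79 FPKM.

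Of 8 SMAD genes, which encode the proteins that carry the signal to the nucleus, 7 were compared, 5 had ratios below 0 and none differed 2-fold after adding 1 FPKM. The exception in direction with the largest ratio, 0.97, was Smad6, which encodes an inhibitory SMAD induced by BMP, at 7.77 FPKM in the knockout library and 3.49 FPKM in the wild-type library. Over the RefSeq exons of Smad6 the levels were 5.36 and 3.49 FPKM, a ratio of 0.50. All 10 SMAD regulators were compared, with a median of -0.16 and 2 at least 2-fold higher. One was Tgif1, a corepressor, at 42.8 FPKM in the knockout library and 20.5 FPKM in the wild-type library. Over the RefSeq exons of Tgif1 the levels were 24.1 and 11.9 FPKM, a ratio of 0.96, which is below 2-fold. The other was Smurf2, a ubiquitin ligase, at 10.9 FPKM in the knockout library, with 0 listed for wild-type. The 4 convertase genes, whose products cut the precursors, had a median of 0.18 and none 2-fold different.

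The list of target genes had the highest median of these lists, at 0.91, with 8 of 9 compared genes above 0, 6 above the median gene and 3 at least 2-fold higher. Atoh8, a BMP-induced transcription factor, was at 34.7 FPKM (bounds 30.8 to 38.6) in the knockout library and 11.5 FPKM (10.3 to 12.7) in the wild-type library. Msx2, a homeobox gene induced by BMP, was at 5.08 and 1.43 FPKM. Over its RefSeq exons the levels were 3.82 FPKM in the knockout library and 1.43 FPKM in the wild-type library, a ratio of 0.99. Its RefSeq transcript alone was lower in the knockout library, at 0.969 and 1.43 FPKM, so the higher level rests on assembled models. Id3 was at 51.3 FPKM in the knockout library and 24.0 FPKM in the wild-type library, and Id1 at 29.5 and 15.2 FPKM. ID proteins are inhibitors of helix-loop-helix factors and classical BMP targets, and also respond to other signals. For Id3 the deposited level lay above its own upper bound in both libraries, at bounds of 39.2 to 48.2 and 17.6 to 23.4 FPKM. The same held for Id1 in the knockout library, at bounds of 21.7 to 27.6 FPKM. It also held for the Sertoli marker Defb19 in the wild-type library, at bounds of 34.6 to 47.7 FPKM. Skil, a target of activin and TGF-beta, was lower, at 7.57 FPKM in the knockout library and 13.9 FPKM in the wild-type library.

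Of 10 genes that regulate Amh or the inhibin subunits 9 were compared, with a median of 0.55 and 8 above 0. Nr5a1, which activates Amh and Inha, was at 27.6 FPKM in the knockout library and 14.6 FPKM in the wild-type library. Fshr, the receptor of follicle-stimulating hormone, was at 4.34 and 2.05 FPKM, and Gata4 at 38.4 and 23.5 FPKM. Over the RefSeq exons of Gata4 the levels were 26.4 and 23.5 FPKM, a ratio of 0.16. With RefSeq transcripts alone Gata4 was lower in the knockout library, at 13.6 and 23.5 FPKM, so its higher level rests on assembled models. For Nr5a1 the ratio over RefSeq exons was 0.77, and RefSeq transcripts alone were at 13.38 and 13.05 FPKM. For Fshr that ratio was 0.64, and RefSeq transcripts alone were at 1.08 and 0.470 FPKM. Of these regulators, 6 are also among the Sertoli markers above.

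**Figure D4:**
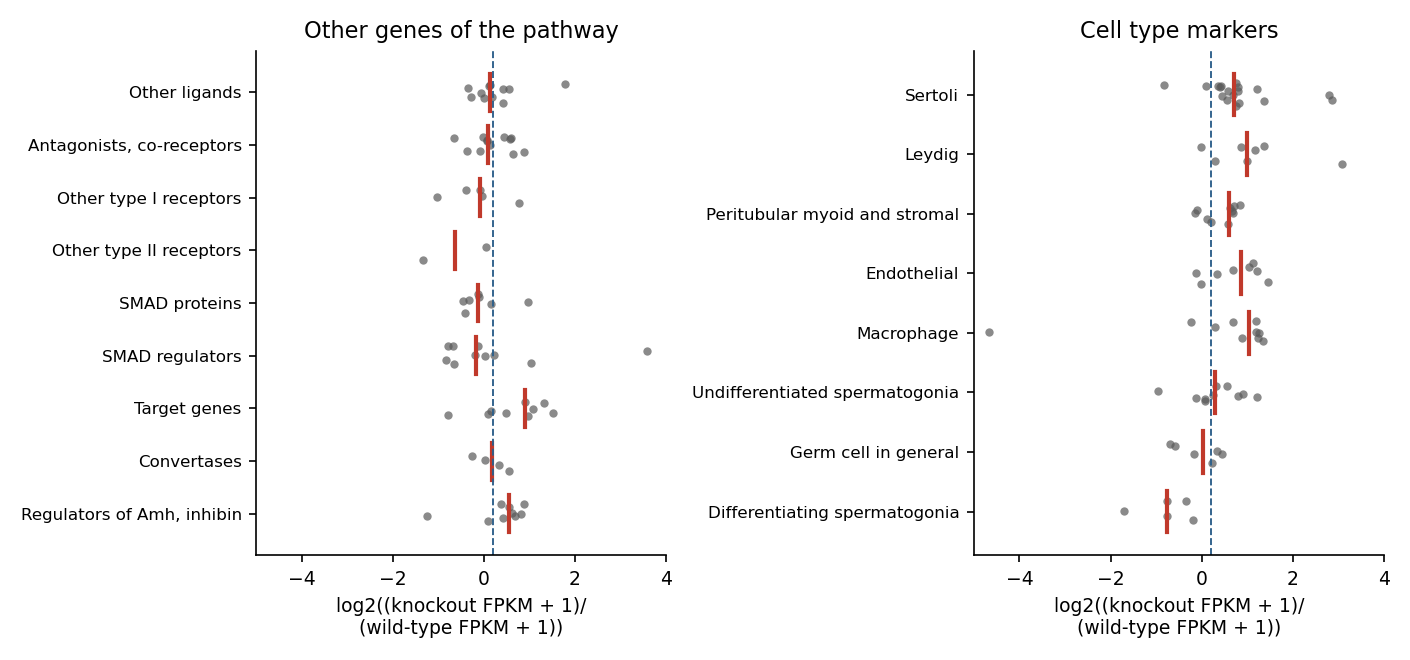
Ratio of each gene compared (grey points) in lists of other pathway genes (left) and of cell type markers (right), as the log2 of knockout over wild-type level after adding 1 FPKM to each; red bars are list medians and the dashed blue line is the median gene at 0.21. Target genes, with a median of 0.91, and the Sertoli, Leydig, endothelial and macrophage lists lie mostly to the right of the line.

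Ratios were lower for genes with longer transcripts, with a Spearman rho of -0.40 across all genes compared, which are not independent replicates. Amh, Inha and Bmp4, the genes of the set at least 2-fold higher, have short RefSeq transcripts of 1665, 1463 and 1994 nt. Acvr2a and Bmpr1a, with ratios below 0, have long ones of 5681 and 5481 nt. Against the median of genes of like length, in 20 bins, the ratio of Amh was 1.62, that of Inha 0.82 and that of Bmp4 0.82. Inhbb stood at 0.46 above its bin, Amhr2 at 0.29, Fst at 0.08, Acvr2a at -0.28 and Bmpr1a at -0.48. Inhba and Acvr2b have short RefSeq transcripts and stood farther below their bins than below 0, at -2.19 and -1.25, but their assembled models are longer. Every gene of the set kept its direction, and Amh alone was still at least 2-fold higher.

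**Figure D5:**
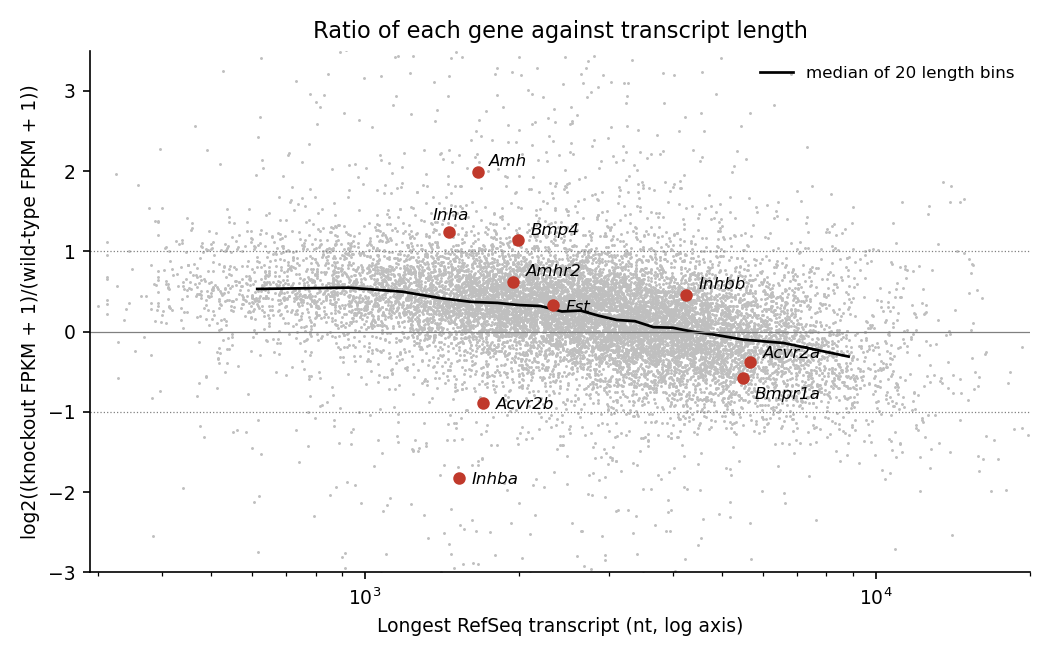
Ratio of each of 13822 genes (grey), as the log2 of knockout over wild-type level after adding 1 FPKM to each, against the length of its longest RefSeq transcript on a log axis; the black line joins the medians of 20 length bins, dotted lines mark 2-fold, and 163 genes lie outside the frame. The 10 genes are in red: Amh lies farthest above the line and Inhba farthest below it.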

How the data were processed

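Poly(A) RNA was copied with random primers and sequenced from both ends (HiScanSQ), per the labels' protocols, from 1 Dnmt3l knockout and 1 wild-type library. The tools were CASAVA 1.9, TopHat2 2.0.8 and Cufflinks 2.1.1 on mm10, per the submitters' processing notes, which give no settings here. Each file the authors deposited lists FPKM, bounds and coverage for 30073 RefSeq transcripts and for assembled models, 20415 in the knockout and 20579 in the wild-type library. Read counts are not in these files, so depth is unknown and no counting interval is given. Coverage per FPKM was 3.45 in the knockout and 3.13 in the wild-type library.

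RefSeq identifiers were named by accession or, for 596 of 30079, by exon overlap with GENCODE M21, and 72 stayed unnamed. Models joined the gene with most shared exon bases on their strand. Genes with 1 FPKM in a library or more and a RefSeq transcript of 300 nt were compared. A level over exons, introns or ends is the mean over bases of the summed FPKM of models on either strand. The members of the set and the other gene lists were chosen with earlier results of these data known. Genes named were all 10 genes of the set, Dnmt3l, up to 4 genes of a pathway list and 3 of a marker list by absolute ratio, and overlapping neighbours. For 1 gene under this rule, the result is not reported here. Kitl, Uchl1, Bmp7, Inhbc, Inhbe, Fstl3, Acvr1b and Id1 lie outside that rule and were named after their values were seen. Alternative settings are given at the end. The computation was tested on simulated data. Python 3.11.15, numpy 2.4.6, scipy 1.17.1 and matplotlib 3.10.9 were used.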

Additional observations from a re-analysis of the deposited data

Results flagged for a closer look

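Models without an assigned strand lie inside 3 of the 10 genes in the knockout library and were left out of the gene sums. They are listed because their level exceeded that of the wild-type library over the same bases. In the 3′ untranslated region of Inhba a model of 2053 nt was at 6.52 FPKM (bounds 5.30 to 7.59), against 6.10 FPKM in the wild-type library, a difference within its bounds. In the first intron of Bmp4 a model of 910 nt was at 2.45 FPKM (1.42 to 3.39), against 0 in the wild-type library. In the first intron of Acvr2b models of 1167 and 1574 nt were at 1.08 FPKM (0.576 to 1.54) and 0.884 FPKM (0.534 to 1.21), against 0 in the wild-type library. None of these has a replicate, and their source was not tested.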

How the results depend on the processing

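No paired analysis was possible because there was 1 library of each genotype. Among all genes compared, 1062 were at least 2-fold higher and 483 lower. With a pseudocount of 5 these were 414 and 160, above a filter of 10 FPKM 569 and 200, after centring on the median gene 674 and 749, scaled to a total that leaves out the top 50 genes by level 644 and 832, at 1.5-fold 3141 and 1245, and at 4-fold 268 and 132. With length-bin medians removed 661 were higher. The lower count was 726 with upper-quartile scaling, 1393 with RefSeq transcripts only, 1436 with the most abundant RefSeq transcript and 301 among genes above 0 in both libraries. Of the 10 genes, the 3 that were 2-fold higher became 1 (Amh) under the scaling without abundant genes and with length-bin medians removed. They became 0 at 4-fold. They became 2 (Inha and Amh) with a pseudocount of 5, after centring, with upper-quartile scaling and above 10 FPKM, where Bmp4 is not compared. They became 4 with RefSeq transcripts only or the most abundant one, where Bmpr1a enters, and at 1.5-fold, where Amhr2 enters. The 1 that was 2-fold lower became 2 (Inhba and Acvr2b) after centring, with upper-quartile scaling, without the abundant genes, with length-bin medians removed and at 1.5-fold. It became 0 with a pseudocount of 5, at 4-fold, above 10 FPKM and with RefSeq transcripts only or the most abundant one, where Inhba is not compared, and 0 over GENCODE exons, a setting chosen after seeing the data. The median ratio of the genes was 1.03 with RefSeq transcripts only or the most abundant one, over 8 genes. Of the 10 genes, 9 kept their direction in every alternative that gave a value, and Bmpr1a turned to 1.07 with RefSeq transcripts only or the most abundant one. Amh ranged from 1.62 to 2.14, Inha from 0.82 to 1.38, Bmp4 from 0.63 to 1.42 and Inhba from -2.47 to -0.74.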
